A study of Drosophila melanogaster with 3 samples.

Results

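The pair-rule genes examined here are opa, eve, ftz, h, run, prd, slp1 and slp2, 8 of the 13945 protein-coding genes of the fly annotation used. A region counted as near one of them when at least 1 bp lay on the gene or within 10 kb of it. By that rule 4 of the 732 thresholded regions, and 78 of the 30000 regions listed for the pooled replicates, which include background, were near a pair-rule gene. The data are chromatin immunoprecipitation followed by sequencing (ChIP-seq) of Insensitive, the insv product, in 1 group of 3 biological replicates. The group was whole Drosophila melanogaster embryos of mixed sex, 0 to 24 hours old, from a transgenic line whose insv protein carries GFP at its C terminus and is stably expressed. An anti-GFP antibody was used to precipitate sonicated chromatin, whose size range the labels give as 200 to 800. The labels do not state what drives the transgene, whether the line kept its own insv copies or whether the replicates were separate collections of embryos. The series has no second condition, so ranks, positions and their spread over replicates are described and no test between groups was possible. Whole embryos of all stages were mixed, so binding in a few cells and weak binding in many cannot be told apart.

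Pair-rule genes encode transcription factors, most of them expressed in stripes in the early embryo, that divide the body into segments before the segment polarity genes, such as en and wg, fix the borders. The homeodomain protein Eve, the bHLH repressor Hairy (h) and Runt (run), the founder of the Runx family, act early in this hierarchy. Ftz and Prd carry homeodomains, Prd with a paired domain as well. The sloppy-paired genes slp1 and slp2 are neighbours that encode forkhead proteins, and odd-paired (opa) encodes a zinc-finger protein of the Zic family, which is expressed in a broad domain and times the late stripe patterns. Insensitive is a BEN-domain protein that binds DNA and acts as a co-repressor, and its domain is known to bind the palindrome CCAATTGG.

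The strongest regions near these genes were not in 1 kind of place. The opa region lay just before the start of its gene and held the palindrome. The ftz gene, in the Antennapedia complex, had a region among the 100 strongest within 10 kb on each side and no thresholded region on the gene. The slp1 and slp2 genes shared 1 weaker region in the DNA between them. The central DNA of these 4 thresholded regions is printed here because the findings on opa, ftz, slp1 and slp2 rest on it. It was read on the plus strand of the RefSeq release 6 genome (dm6), with capitals marking CCAATTGG in the opa region and GGTCACAC in the slp region. The opa window is chr3R:4852410-4852610, the ftz upstream window chr3R:6854432-6854632, the ftz downstream window chr3R:6870842-6871026 and the slp window chr2L:3832420-3832620.
opa promoter: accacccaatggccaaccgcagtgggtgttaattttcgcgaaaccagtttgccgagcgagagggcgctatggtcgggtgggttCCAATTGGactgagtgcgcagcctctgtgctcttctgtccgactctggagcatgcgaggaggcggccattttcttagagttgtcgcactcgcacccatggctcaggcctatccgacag
ftz upstream: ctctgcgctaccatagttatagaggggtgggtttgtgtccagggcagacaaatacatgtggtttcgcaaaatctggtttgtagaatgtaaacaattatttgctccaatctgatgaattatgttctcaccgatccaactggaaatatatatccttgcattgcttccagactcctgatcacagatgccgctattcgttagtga
ftz downstream: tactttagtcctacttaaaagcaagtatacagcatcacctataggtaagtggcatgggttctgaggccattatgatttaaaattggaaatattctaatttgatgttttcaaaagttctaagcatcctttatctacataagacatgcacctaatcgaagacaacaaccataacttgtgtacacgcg
slp1 and slp2: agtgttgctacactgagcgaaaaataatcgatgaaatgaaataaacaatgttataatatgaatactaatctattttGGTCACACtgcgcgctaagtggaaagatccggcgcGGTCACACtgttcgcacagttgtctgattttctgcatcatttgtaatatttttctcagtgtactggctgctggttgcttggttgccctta

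A thresholded region lay within 10 kb of 4 of the 8 pair-rule genes (opa, ftz, slp1 and slp2), at 3 loci, while 17.5% of all protein-coding genes had one that near. No thresholded region lay within 10 kb of eve, h, run or prd. A thresholded summit lay within 500 bp of the start of 1 pair-rule gene, opa, while 3.33% of all protein-coding genes had one there. In every replicate a region among the 1000 highest-signal ones lay near 2 of the 8 genes, opa and ftz, against 13.4% of all protein-coding genes. The count did not require the same region in each replicate. With replicate 2 left out that count was 4, because slp1 and slp2 then joined, both through the same regions. The share of all protein-coding genes was not computed with a replicate left out. With the 366 highest-signal thresholded regions alone 2 of the 8 genes, opa and ftz, had one within 10 kb, against 1471 of the 13945 protein-coding genes. Of the 4 thresholded regions, 3 were overlapped by one of the 1000 strongest of every replicate, and the slp region was the exception. The share of all 732 thresholded regions with such overlap was not computed. The replicates entered the pool behind that list, so the count is not read as particular to these genes. The median length of the 8 genes was 2590 bp and that of all protein-coding genes 2166 bp.

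Ranks here run from 1, the highest signal in a list. The signal is the authors' own value for each region, its scale is not stated, and it is compared within a list only. The lowest thresholded region had a signal of 74.99 and the next pooled region below it 74.98, while the thresholded median was 122 and the maximum 1202. The best-ranked region near a gene spanned ranks 55 for ftz to 12908 for run in the pooled list. The order of the genes by that pooled rank was ftz, opa, the slp pair, eve, h, prd and run. In every replicate ftz ranked ahead of opa and opa ahead of all 6 other genes, and run came last. Between these, the order changed with the replicate. In replicate 1 the best ranks were 393 for the slp pair, 833 for h, 969 for prd and 1014 for eve. In replicate 2 they were 884 for h, 1192 for the slp pair, 1612 for eve and 3142 for prd. In replicate 3 they were 636 for the slp pair, 727 for eve, 2692 for h and 2726 for prd, so these neighbours in the order did not separate beyond the spread between replicates.

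**Figure D1:**
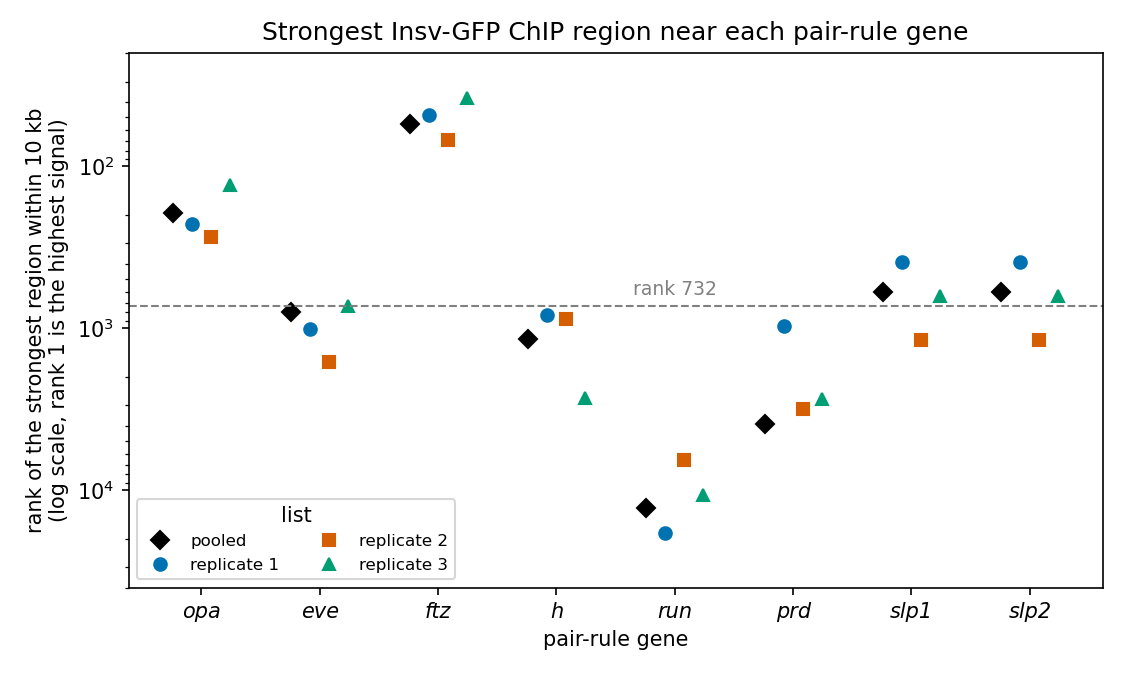
Rank of the highest-signal region within 10 kb of each pair-rule gene (log scale, high signal at the top) in the pooled list and in the 3 replicate lists, 1 symbol per list. The dashed line is rank 732, the length of the thresholded list; ftz and opa lie above it in all 4 lists, and run, whose best rank in any list is 6480, lies lowest in all of them.

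Odd-paired (opa, FBgn0003002) occupies chr3R:4852813-4869979 on the plus strand, 17167 bp with 1 annotated start. Its thresholded region, chr3R:4852303-4852718, was intergenic, ended 95 bp before the gene and had its summit at -302 bp, where negative distances are upstream of the start. Pooled, the region had rank 195 of 30000 and a signal of 181. In replicate 1 the overlapping region had rank 228 and a signal of 71.1. In replicate 2 it had rank 275 and a signal of 56.0. In replicate 3 it had rank 130 and a signal of 58.3. The promoter region of opa was therefore within the top 0.917% of the pooled list and of each replicate list. Its geometric mean rank was 201 over the replicates (SD of the ranks 74.0, n = 3). Leaving out each replicate in turn gave a geometric mean rank of 172 to 250.4.

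Among all protein-coding genes with a region at a start, opa stood at place 162 of 5200 in the pooled list. Its place was 196 of 4723 in replicate 1, 212 of 5410 in replicate 2 and 109 of 5125 in replicate 3. A second pooled region overlapped the first, with its summit at -102 bp, rank 1562 and a signal of 52.1. Replicate 2 listed a region of its own at -102 bp with rank 10025 and replicate 3 one at -96 bp with rank 12220, and other regions near opa ranked higher than these in both. The strongest region farther upstream, at -1519 bp, had pooled rank 3851 and ranks of 27742, 16471 and 4232 in replicates 1, 2 and 3. The strongest pooled region inside the gene lay in an intron at 2250 bp, with rank 8970, and replicate 3 listed none there. In replicate 3 the strongest region inside opa was another intronic one, at 14619 bp, with rank 3227. The 17 pooled regions near opa comprised 2 at its promoter, 5 farther upstream, 7 within the gene and 3 downstream.

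**Figure D2:**
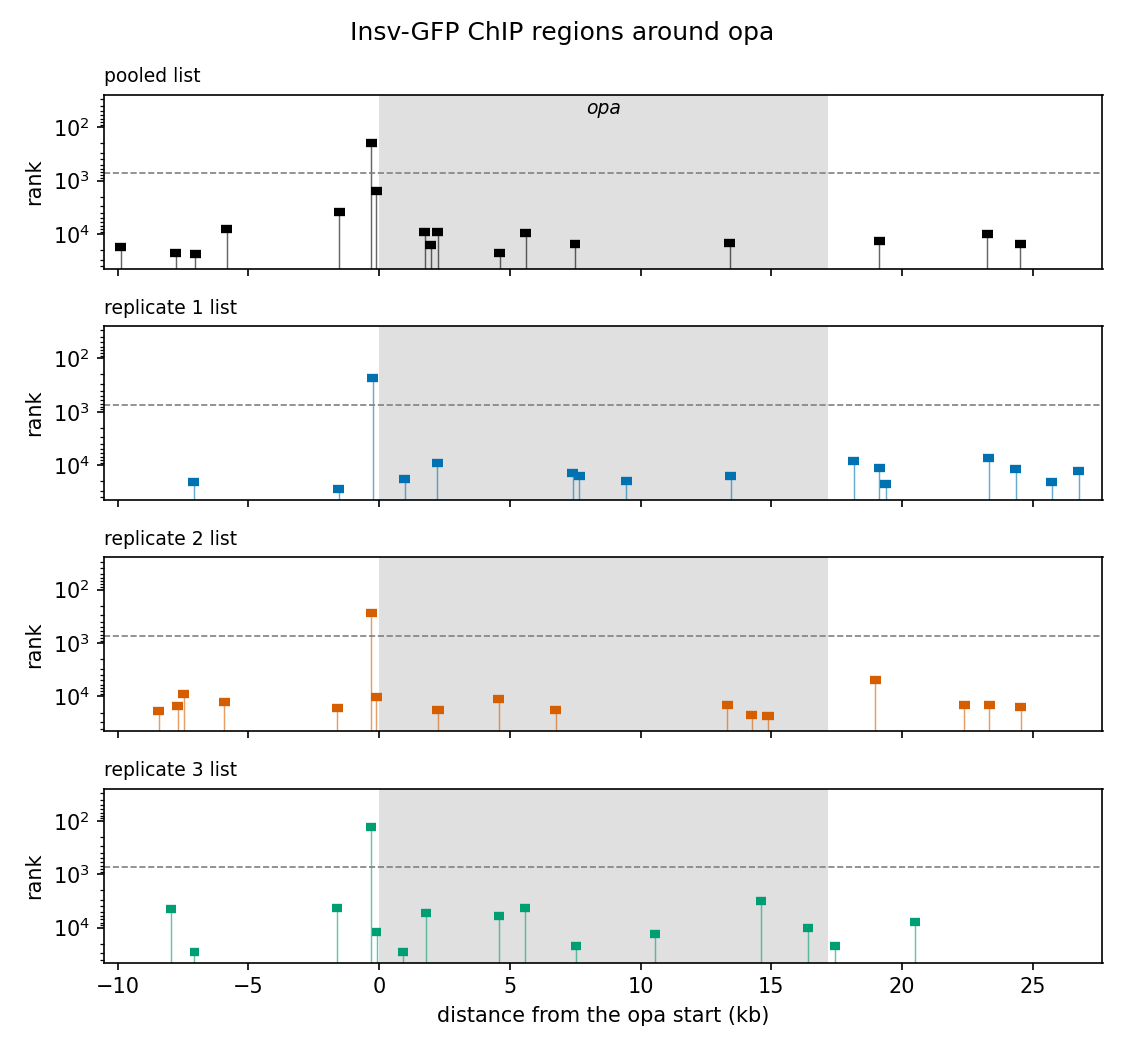
Regions within 10 kb of opa in the pooled list and in each replicate, drawn as bars at their rank (log scale, high signal at the top) against distance from the opa start in kb, with the gene shaded and rank 732 dashed. A region just left of the start stands at rank 195 pooled and at 228, 275 and 130 in the replicates, and every other region is below the dashed line.

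Over the 1900 genes with a region at a start in all 3 replicates, likeness to the ranks of opa was measured by the largest difference in log10 rank over the 3 replicates, and 4 of the 5 most alike genes are described. CG8004 had ranks of 277, 255 and 107 in replicates 1, 2 and 3, with a largest difference of 0.0846. The Iroquois homeobox gene caup had ranks of 186, 329 and 138, with a largest difference of 0.0884. SPoCk, a calcium pump of the secretory pathway, had ranks of 290, 365 and 167. The diacylglycerol kinase gene rdgA had ranks of 270, 214 and 173. These genes share the libraries and the list lengths with opa, and the likeness is one of rank alone.

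The other pair-rule genes had little at their own starts. The start of h carried the next strongest promoter region, with rank 3834 in the pooled list, 884 in replicate 2 and 3819 in replicate 3, and replicate 1 listed none. The ftz start had pooled rank 5181, ranks of 17612 and 9206 in replicates 1 and 3, and no region in replicate 2. The eve start had pooled rank 19295 and ranks of 11321, 7121 and 10194 in replicates 1, 2 and 3. At prd a start region was listed in the pooled list alone, with rank 21204. At run there was none pooled, with ranks of 18439 and 6480 in replicates 1 and 2. The slp1 start had a region in replicate 1 alone, with rank 29385, and the slp2 start had none in any list. The ranks of the opa promoter thus stood ahead of those of all 7 other genes in each list.

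Fushi tarazu (ftz, FBgn0001077) lies in the Antennapedia complex at chr3R:6864324-6866244, plus strand, between the Hox genes Scr and Antp. It is 1921 bp long and encodes a homeodomain protein that works with the nuclear receptor Ftz-F1. Its upstream region, chr3R:6854376-6854689, had its summit at -9804 bp from ftz and at -4539 bp from the start of Scr, which is transcribed away from it. This region had pooled rank 55 and a signal of 345. In replicate 1 its rank was 48 with a signal of 155. In replicate 2 its rank was 82 with a signal of 107. In replicate 3 its rank was 63 with a signal of 87.2. The geometric mean rank over the replicates was 62.8 (SD of the ranks 17.0, n = 3).

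The downstream region of ftz, chr3R:6870842-6871026, had its summit at 6638 bp from the ftz start, and its near edge was 4597 bp past the end of the gene. It had pooled rank 61 and a signal of 338. In replicate 1 its rank was 90 with a signal of 113. In replicate 2 its rank was 69 with a signal of 116. In replicate 3 its rank was 38 with a signal of 103. The geometric mean rank was 61.8 (SD of the ranks 26.2, n = 3), so both flanking regions were among the 100 strongest in every list and the difference between them was smaller than the spread over replicates. Both regions were short, at 314 and 185 bp against a median of 416 bp for thresholded regions, and intergenic.

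The flanking regions of ftz were 16152 bp apart, and ftz was the 1 protein-coding gene with a start between them. On the gene itself the strongest pooled region had rank 11857, in its coding sequence. The 9 pooled regions near ftz comprised 1 at its promoter, 3 farther upstream, 1 within the gene and 4 downstream, and the replicates listed 7, 8 and 8. Having thresholded regions on both sides within 10 kb and none on the gene was seen at 114 protein-coding genes, 0.817% of them, and ftz was the 1 pair-rule gene among these. Having regions among the 100 strongest on both sides, and none of those 100 on the gene, was seen at 4 genes, 0.0287% of all. These were ftz, Rbm13, Uros1 and e(r). Both counts were chosen after the values at ftz had been seen. They depend on the 10 kb limit, since within 5 kb ftz had only 1 thresholded region, the downstream one. Chromatin boundary elements are known to flank ftz in this complex, and their coordinates were not used here.

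**Figure D3:**
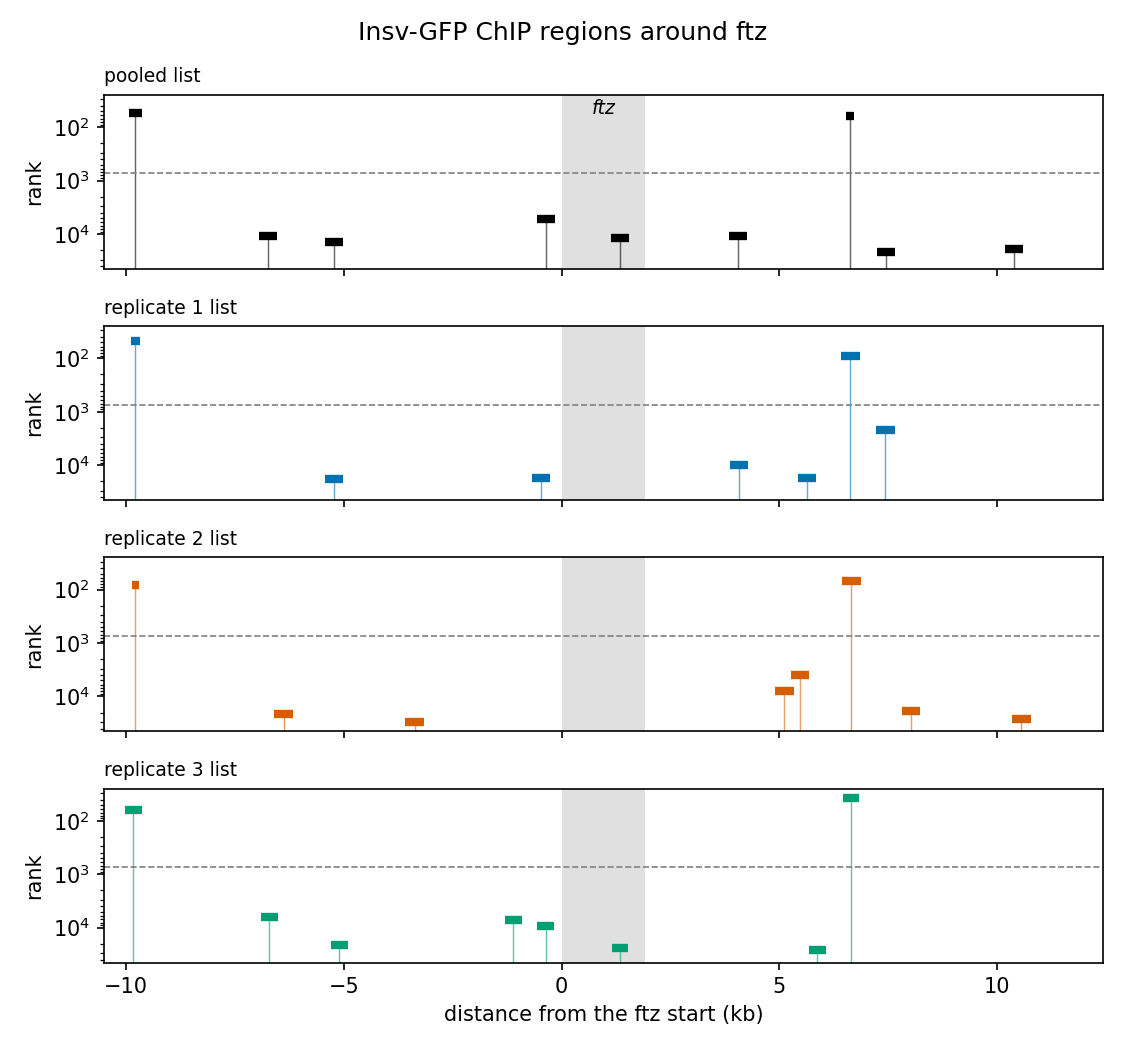
Regions within 10 kb of ftz in the pooled list and in each replicate, drawn as bars at their rank (log scale, high signal at the top) against distance from the ftz start in kb, with the gene shaded and rank 732 dashed. The regions at -9804 and 6638 bp are above the dashed line in all 4 lists, and every region between them is below it.

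The sloppy-paired genes slp1 (FBgn0003430, chr2L:3825675-3827099) and slp2 (FBgn0004567, chr2L:3836840-3839185) lie on the plus strand with 9740 bp between them. Their shared thresholded region, chr2L:3832313-3832728, was intergenic, 5213 bp past the end of slp1 and 4111 bp before the start of slp2. It had pooled rank 601 and a signal of 86.6. In replicate 1 its rank was 393 with a signal of 49.8. In replicate 2 its rank was 4058 with a signal of 16.4. In replicate 3 its rank was 785 with a signal of 21.4. The geometric mean rank was 1078 with an SD of 2012 (n = 3), so the spread exceeded the mean, and replicate 2 placed the region outside its 1000 strongest.

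The DNA between slp1 and slp2 held other regions whose order changed with the replicate. In replicate 2 the strongest was at chr2L:3827681-3828110, with rank 1192 and a summit 2221 bp from the slp1 start. In replicate 3 it was at chr2L:3829614-3829993, with rank 636 and a summit 4129 bp from the slp1 start. The pooled region overlapping that stretch, chr2L:3829631-3830046, had rank 3218. A region in the slp2 coding sequence, chr2L:3837991-3838406, had pooled rank 3225 and ranks of 7385, 4903 and 7638 in replicates 1, 2 and 3. The pooled list had 16 regions near slp1 and 15 near slp2, and 10 of these were the same regions. This came to 7.47 and 6.71 regions per 10 kb of gene and flank, against 2.24 per 10 kb over the genome. In replicates 1, 2 and 3 the values were lower, at 4.20, 4.67 and 3.27 for slp1 and 5.37, 4.92 and 4.48 for slp2. The pooled values of opa, eve, ftz, h, prd and run were 4.57, 4.66, 4.11, 4.68, 3.50 and 0.750. The 2.24 is taken over whole chromosome arms, and the density around all genes was not computed.

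**Figure D4:**
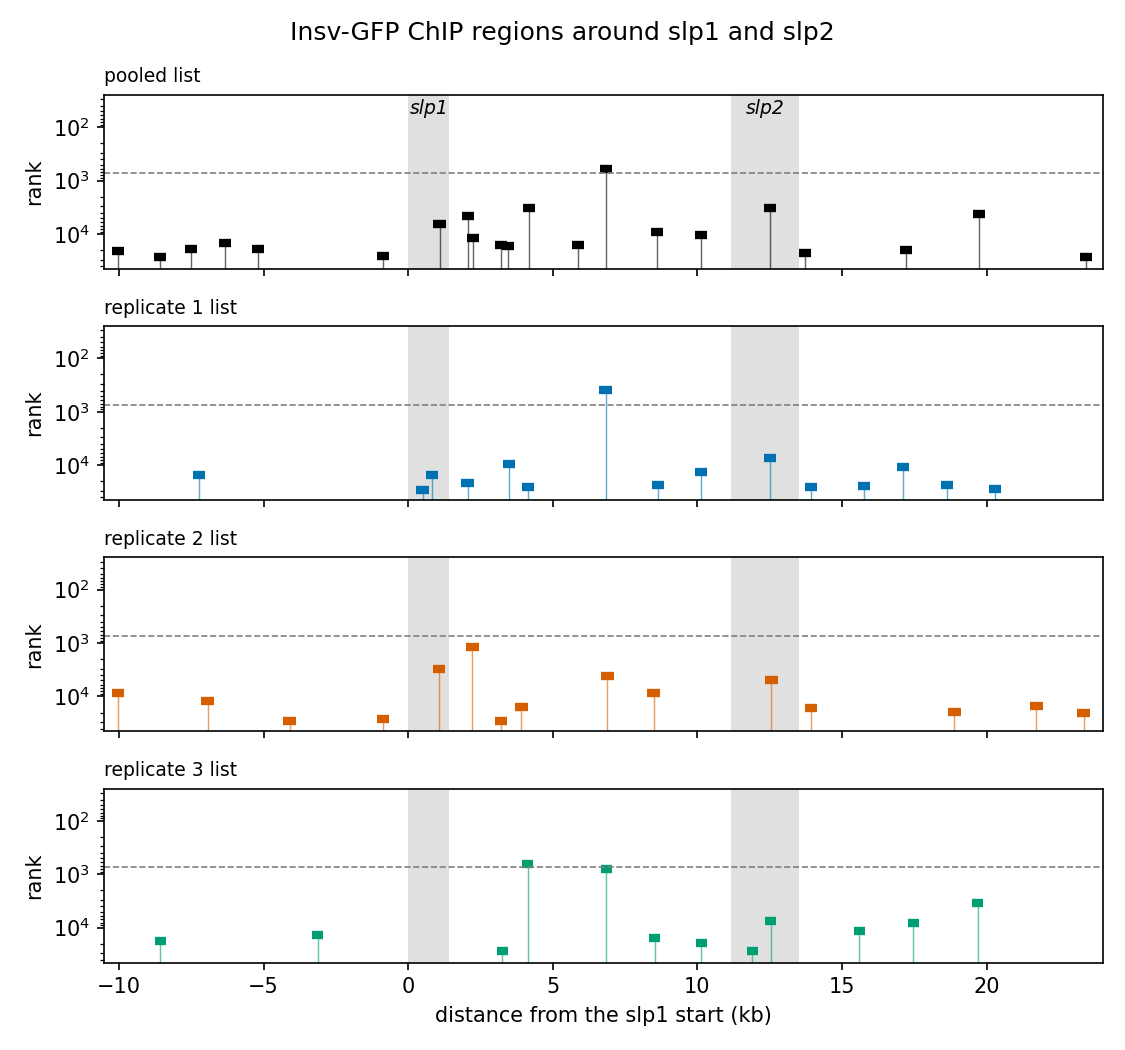
Regions within 10 kb of slp1 or slp2 in the pooled list and in each replicate, drawn as bars at their rank (log scale, high signal at the top) against distance from the slp1 start in kb, with both genes shaded and rank 732 dashed. The shared region between the genes has rank 601 pooled and ranks of 393, 4058 and 785 in the replicates, below the dashed line in replicates 2 and 3. In replicate 3 a different region, at rank 636, is above it.

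Even-skipped (eve, FBgn0000606, chr2R:9979319-9980795), an early homeodomain repressor, had its strongest pooled region at chr2R:9969867-9970282. This region had rank 796 and a signal of 71.3, just outside the thresholded list, and lay at -9244 bp from eve in coding sequence of eIF3j, a translation initiation factor gene. The overlapping regions had ranks of 1422, 1612 and 1466 in replicates 1, 2 and 3, so it ranked alike in all 3. Stronger regions in coding sequence of CG12134 appeared in replicate 1, with rank 1014 at -7293 bp, and in replicate 3, with rank 727 at -6892 bp. The regions nearest to the threshold at eve therefore lay in neighbouring genes. The 10 pooled regions near eve comprised 1 at its promoter, 6 farther upstream and 3 downstream, and the replicates listed 11, 9 and 12.

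Hairy (h, named hry in the annotation, FBgn0001168, chr3L:8675759-8679253) encodes a repressor that recruits Groucho. Its strongest pooled region, chr3L:8673621-8674036, was intergenic at -1930 bp, with rank 1165 and a signal of 58.7. In replicate 1 the overlapping region had rank 833 and a signal of 33.4. In replicates 2 and 3 it had ranks of 5427 and 2692 with signals of 15.0 and 15.1. An intronic region of h had pooled rank 3143 and rank 2306 in replicate 1, and replicates 2 and 3 listed none there. The strongest region of h was thus a different one in replicate 2, where the start region led. The 11 pooled regions near h comprised 1 at a promoter, 4 farther upstream, 2 within the gene and 4 downstream, and the replicates listed 12, 8 and 12.

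Paired (prd, FBgn0003145, chr2L:12082995-12085827) lies on the minus strand. Its strongest pooled region, chr2L:12095037-12095452, had rank 3929 and a signal of 38.8 at -9418 bp, in coding sequence of the neighbouring gene CG6712 and the 3' UTR of Pex19. The overlapping regions had rank 969 with a signal of 31.2 in replicate 1, but ranks of 23126 and 16028 with signals of 8.74 and 8.95 in replicates 2 and 3. The region near prd was thus among the 1000 strongest in replicate 1 alone. Runt (run, FBgn0003300, chrX:20690670-20697321) had 2 pooled regions near it, at ranks 12908 and 19120. Its best ranks were 18439, 6480 and 10691 in replicates 1, 2 and 3. At 0.750 pooled regions per 10 kb, run was the 1 member below the 2.24 per 10 kb over the genome in that list. The share of all genes below that value was not computed, so this is not read as particular to these genes. Unlike the other members, run is on the X chromosome, in embryos of mixed sex, and any effect of this was not tested. In replicates 1, 2 and 3 run had 2.25, 1.88 and 1.13 per 10 kb, and prd had 2.63, 3.07 and 2.19.

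**Figure D5:**
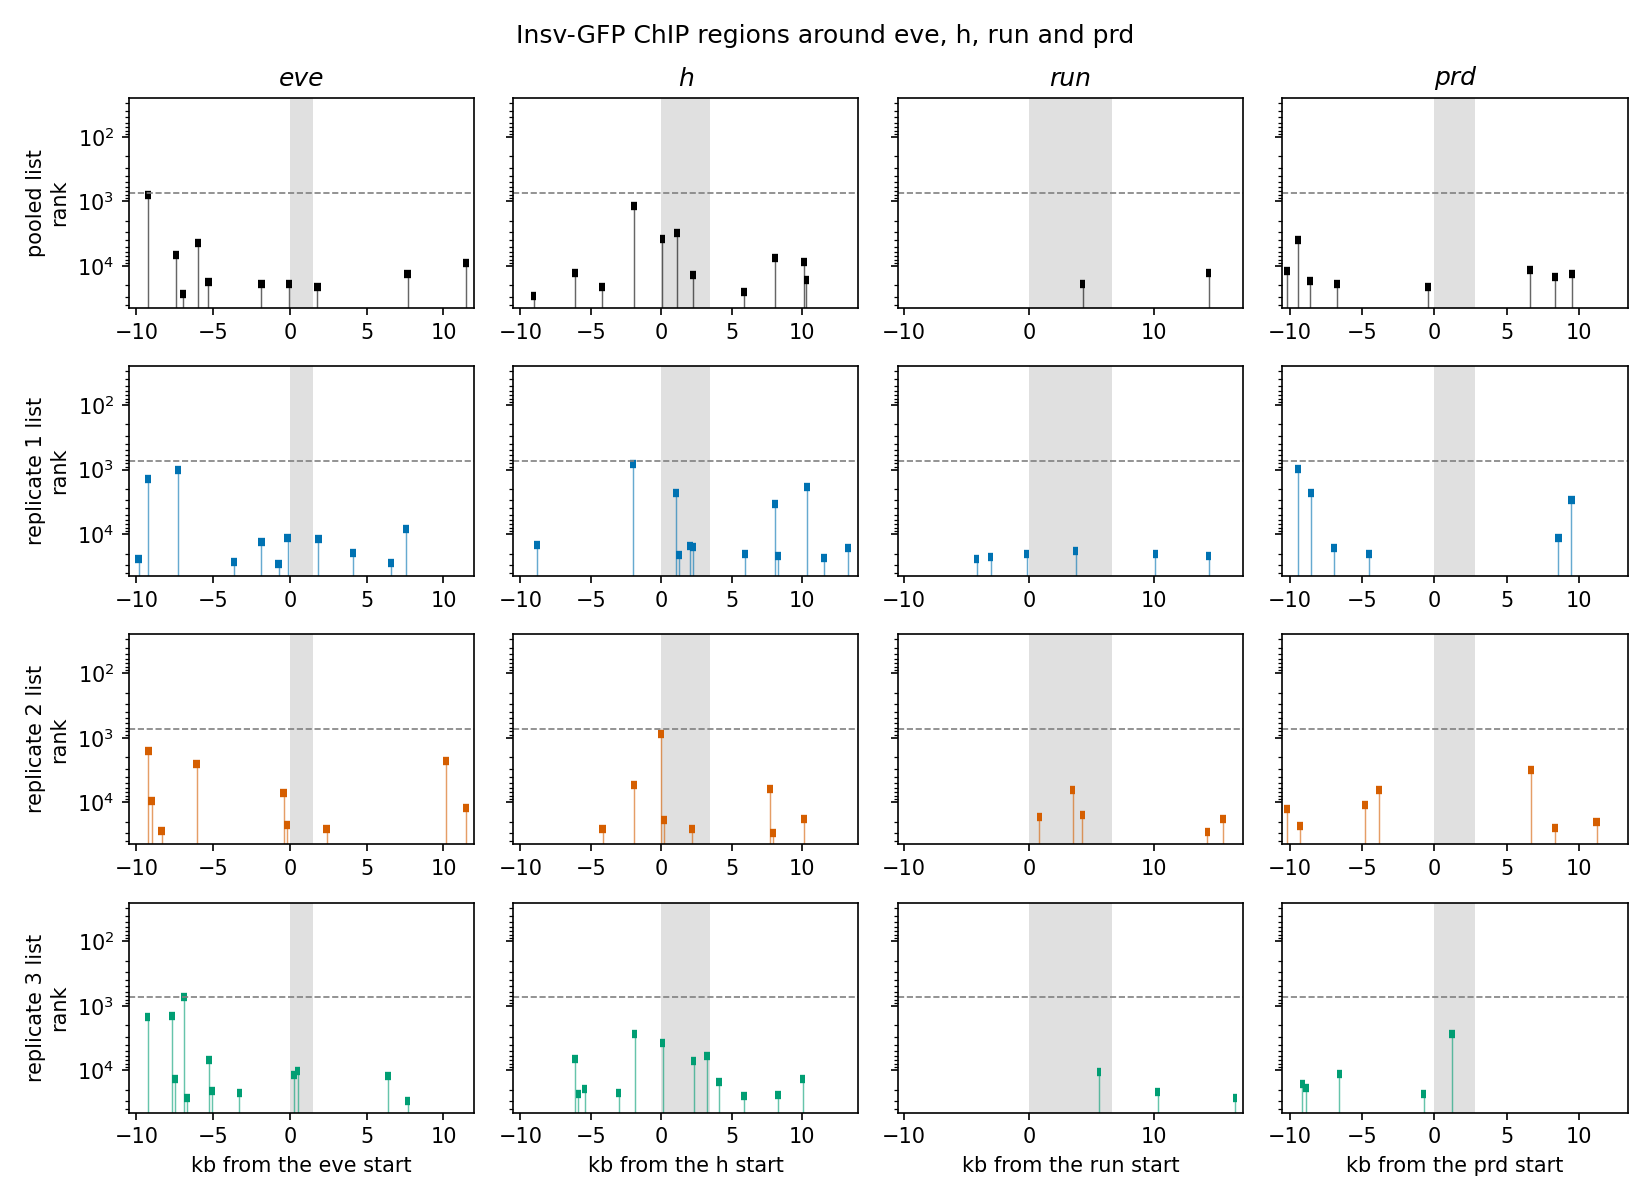
Regions within 10 kb of eve, h, run and prd (columns) in the pooled list and in each replicate (rows), drawn as bars at their rank (log scale, high signal at the top) against distance in kb from the 5' end of the gene, with the gene shaded and rank 732 dashed. The pooled lists hold 10, 11, 2 and 8 regions at eve, h, run and prd, none of them above the dashed line, and replicate 3 has 1 region just above it at eve, with rank 727.

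By rank the pooled regions near pair-rule genes were spread through the list much as all regions were, apart from a larger share among the strongest. Of the 78 pooled regions, 64.1% were weaker than rank 10000, against 66.7% of the whole list, and their median rank was 13530, against 15000.5. Among the 1000 strongest were 5 of the 78 (6.41%), against 3.33% of the whole list. The replicates gave 73, 69 and 67 regions near the 8 genes, with 6, 4 and 6 (8.22%, 5.80% and 8.96%) among the 1000 strongest. The median ranks there were 15906, 14779 and 11956, and 71.2%, 65.2% and 58.2% were weaker than rank 10000. The shares among the strongest rest on few regions. The pooled list and the replicate lists all hold background regions by construction, so most of these regions are not thresholded peaks. Counted once for each gene they were near, the pooled regions comprised 6 at promoters, 38 upstream, 13 within genes and 31 downstream.

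Other segmentation genes were read the same way, from a list of 38 maternal, gap, segment polarity and other pair-rule or modifier genes. A thresholded region lay within 10 kb of 4 of the 38 (10.5%), against the 17.5% of all protein-coding genes, and a summit lay at the start of 1 of them (2.63%). That gene was mid, which encodes a T-box protein, with a region at rank 35 whose summit was at -220 bp, and ranks of 39, 39 and 44 in replicates 1, 2 and 3. The nuclear receptor gene knrl had a region in an intron with rank 312. The head gap gene btd had one at rank 566, at -6476 bp from btd and -644 bp from nej, which encodes a histone acetyltransferase. The gene of the Hedgehog receptor, ptc, had one at rank 622, at -5217 bp. The segment polarity genes en and wg, on which pair-rule proteins act, had none within 10 kb.

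Of 6 short motifs searched on both strands in the 4 thresholded regions, 2 were found. The opa region held CCAATTGG once, from -320 to -313 bp, with the middle of the motif about 13 bp to the left of the region's centre, as printed in capitals above. Of all 732 thresholded regions, 99 (13.5%) held this palindrome within 100 bp of the centre. Among these 99 the opa region was 45th by signal, with 181 against a median of 170.4. No CCAATTGG lay in the ftz or slp regions.

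The slp region held GGTCACAC, the core of the sequence bound by M1BP, in 2 copies on the same strand, 35 bp apart from first base to first base. The same window held that motif at least once in 23 of the 732 regions (3.14%), and 2 of the 732 (0.273%) had 2 or more copies. Counting windows with 2 or more copies was chosen after the slp window had been seen. The ftz regions held none of the 6 motifs. The remaining motifs were CCAATAAG, known for the Elba complex, in 7.65% of the 732 windows, TATCGATA, known for DREF, in 3.42%, GAGAGAG, known for the GAGA factor, in 8.06%, and CAGGTAG, known for Zelda, in 1.50%. Copies of GAGAGAG can overlap each other, and each share counts a window once. No match says only that these letters are not in the window.

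Of the 2939 CCAATTGG sites on the 6 chromosome arms, 124 (4.22%) were in thresholded regions and 454 (15.4%) in pooled ones. Within 10 kb of the pair-rule genes there were 5 such sites. The opa site was the 1 in a thresholded region. The second-best ranked was at prd, at -9218 bp, inside the region with ranks of 969, 23126 and 16028 in replicates 1, 2 and 3. The h site was in a pooled region of rank 25024, and the eve site and the other prd site were in no pooled region. No CCAATTGG lay within 10 kb of ftz, run, slp1 or slp2.

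In the promoters of the 8 genes, taken as 250 bp before to 50 bp after each of their 11 annotated starts, CAGGTAG was the 1 motif of the 6 present. It was found at ftz, from -206 to -200 bp, at h, from -121 to -115 bp, and at slp1, from -140 to -134 bp. Of all 19607 promoters cut in the same way, 1.70% held CAGGTAG. The same promoters held CCAATTGG in 0.984%, CCAATAAG in 0.949%, TATCGATA in 7.98%, GAGAGAG in 7.61% and GGTCACAC in 6.72%. The opa palindrome lies outside this promoter window, farther upstream.

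The printed windows also differed in base composition. The opa window had a GC content of 58.2%, and 9 of the 732 thresholded windows were higher. The slp window had 39.8% and the ftz upstream window 41.8%, both inside the quartiles of 34.3% and 44.8% around the median of 39.3%. The ftz downstream window had 35.1% over 185 bp.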

How the data were processed

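The authors deposited region lists for 3 replicates, for their pool and for the thresholded result, per the labels and the text lists beside the samples. The signal of each region is the authors' deposited value, on a scale not stated. Not given in the sources used here are the caller, the aligner, the depth and the threshold on the irreproducible discovery rate (IDR). No interval was therefore computed, and the precision of a value is known only from the 3 replicates. Per the same lists, the replicate lists and the pooled list hold peaks and background, and a control library entered the calling, which was not analysed here. All 732 thresholded regions equal the top of the pooled list, and the replicates entered the pool, so their ranks are not independent of it. A summit lay at the middle of the region in 610 of the 732.

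Regions were ranked by signal within each dm6 list, and the dm3 lists were not used. The genome was RefSeq release 6 with Ensembl release 115 annotation (BDGP 6.54), and all 46 gene symbols matched, 3 through another symbol. A promoter region has its summit within 500 bp of a start. Replicate values are those of the strongest region overlapping by at least 1 bp. Motifs were sought within 100 bp of region centres. All 8 genes were described. Of the 5 genes most like opa in rank at a start, 1 is not reported here. Neighbours were named where a region described here lay within 500 bp of their start, and other segmentation genes where a thresholded region lay within 10 kb. TER94 near eve, CG14947 near prd and laf near opa also had a listed region within 500 bp of a start, which is not described. Other genes named beside a region, and en and wg, were chosen after the values were seen. Members, lists, motifs and alternatives were chosen with earlier results of these data known. Python 3.11.15, NumPy 2.4.6, pandas 2.3.3 and matplotlib 3.10.9 were used, and the code was tested on simulated data. Alternatives were other distances, thresholds, overlaps and numbers of top regions, and leaving out each replicate.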

Additional observations from a re-analysis of the deposited data

How the results depend on the processing

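Of 41 alternative settings, 30 kept the value within 1.5 times of that reported (for the opa rank, within 1 SD) and 11 did not, and the cause was not tested. Leaving out 1 of 3 replicates could hardly move the opa mean by 1 SD, and the other opa settings gave the same value. The opa settings are among the 30 and so say little on stability. Of the 8 members, 4 had a thresholded region within 10 kb, 3 within 5 kb, 5 within 20 kb and 2 with the 366 strongest regions. At the same settings 2441, 1638, 3752 and 1471 of all 13945 protein-coding genes had one. With the 2000 strongest regions of each replicate, 5 members instead of 2 had one near them in every replicate. These need not be the same region. Near slp1 and slp2 it was a different one in replicate 2, at rank 1192, where the shared region had rank 4058. The share of all genes was not computed at this setting. With the 1000 strongest, leaving out 1 replicate gave 2 to 4, the 4 without replicate 2, and there too the share of all genes was not computed. Within 250 bp of a start, 0 pair-rule genes had a thresholded summit instead of 1, since that of opa is at -302 bp. Leaving out 1 replicate gave 3 to 4 thresholded regions found in the remaining ones, against 3, and a geometric mean rank of 172 to 250.4 for opa. Among the other segmentation genes, 2 instead of 4 had a thresholded region within 5 kb, 7 within 20 kb and 2 with the 366 strongest. Among all protein-coding genes the counts within 20 kb and with the 366 strongest, given above, were not within 1.5 times of the 2441 reported. Near the members the pooled list had 43 distinct regions within 5 kb and 121 within 20 kb, instead of 78. No paired analysis was possible because the series holds 1 group. Depth is unknown, so a region absent from a list may be present at greater depth.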

Other observations

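Beyond 10 kb, a thresholded region lay at -19420 bp from eve, at chr2R:9959691-9960106. Its summit was at -167 bp from the start of Pdrg1, in an intron of Pal1. It had pooled rank 201 and a signal of 179, with ranks of 109, 384 and 387 in replicates 1, 2 and 3.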
